A study of Bos taurus with 4 samples.

Results

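The sequences described here are short small RNAs of bovine oocytes that begin with T and that the annotation placed on predicted coding transcripts alone. A sequence was taken when every name listed for it was a GENSCAN transcript, that is, a coding transcript predicted from genomic sequence by a gene finder, when its first base was T, and when it was 18 to 23 nt long. This rule found 26688 of 2468643 distinct sequences (1.08%), and these 26688 were a subset of the 170356 sequences with GENSCAN names alone. The oocytes were at the germinal vesicle (GV) stage, the prophase arrest that precedes maturation, and small RNAs were sequenced from 2 input libraries and from 2 libraries made after precipitation with an anti-TDRKH antibody (TDRKH IP). No IP with a control antibody is among the libraries, so RNA bound by TDRKH and background of the precipitation cannot be told apart. Whether libraries 1 and 2 of a group hold different oocytes is not said in the labels, and p-values therefore weigh the changes against a spread among libraries that may be technical.

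TDRKH carries a tudor domain, a fold through which such proteins dock on PIWI proteins, and PIWIL3, the partner named in the study's title, is a PIWI protein of the mammalian oocyte. PIWI proteins carry piRNAs, small RNAs that come largely from long precursor transcripts of genomic clusters and whose first base is most often U, written T in the files. A second class of piRNAs, made by slicing of a complementary transcript, tends to carry A at position 10. Fragments of coding transcripts also occur in small RNA libraries without a PIWI partner, and names alone do not separate them from piRNAs.

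The sequences that carried most of the reads are shown first, 5′ to 3′ with the first T in capitals, because their letters tie them to longer small RNAs of the same libraries. Each is headed by its GENSCAN name. Where a longer listed sequence follows, it is the one with the most reads that holds the member, and the capitals in it mark the member. The words "a piRNA cluster" before a longer sequence do not mean 1 cluster alone: the first one printed carries 2 cluster names.
GENSCAN00000020599, 18 nt: Ttcttgggaattgtgatg
longer sequence named for a piRNA cluster: TTCTTGGGAATTGTGATGagggtt
GENSCAN00000005115, 20 nt: Tctttgcgaccctgtggact
longer sequence named for piRNA clusters: TCTTTGCGACCCTGTGGACTgtagcc
GENSCAN00000005115, 21 nt: Tctttgtgaccctatggactg
longer sequence named for piRNA clusters: TCTTTGTGACCCTATGGACTGcagca
GENSCAN00000006009, 18 nt: Tactgtctgagccaccag
longer sequence named for piRNA clusters: TACTGTCTGAGCCACCAGgga
GENSCAN00000046060, 18 nt: Tctcaaggactctctctt
longer sequence named for a piRNA cluster: tTCTCAAGGACTCTCTCTTcctt
GENSCAN00000019987, 18 nt: Tccccggcacctccacca
GENSCAN00000019987, 18 nt: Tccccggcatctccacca
The first 4 members are the exact 5′ parts of their longer sequences, and the fifth lies 1 base inside its own. The members of 20 and 21 nt on GENSCAN00000005115 differ by C7T and G14A over their shared 20 bases, counted from 1 at the 5′ end. The last pair differ by C10T and have no longer sequence with a cluster name. No row of the files names a GENSCAN transcript and a piRNA cluster together, and no GENSCAN name carries a bracketed mismatch note, whereas 44.7% of the rows with a cluster name carry such a note on every name.

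The libraries held 1079364 and 1354003 listed reads in the inputs and 11138905 and 11060320 in the IPs, so 1 read was worth 0.926 and 0.739 RPM, that is, reads per 1000000 listed reads, in the inputs and 0.0898 and 0.0904 RPM in the IPs. The members took 6393, 8724, 64561 and 69823 reads on 3255, 4202, 11661 and 12499 distinct sequences in input 1, input 2, IP 1 and IP 2, the order used throughout. Sequences with piRNA cluster names alone took 887584, 878140, 968521 and 967837 RPM. MicroRNAs known from cumulus and granulosa cells, the somatic neighbours of the oocyte, summed to 449, 505, 6.28 and 12.7 RPM with all 5 detected. The leukocyte, epithelial, liver and muscle lists were also lower in both IPs than in both inputs. Of their members 3 of 4, 2 of 2, 1 of 1 and 2 of 3 were detected, in that order. Bovine microRNAs as a class stood at 17721, 18162, 603 and 735 RPM, so these lists fell along with the class. The part of other cells' RNA in the results below was not tested.

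As a whole, the members held the same share of the listed reads in input and IP, while most other reads on predicted transcripts fell. They stood at 5923, 6443, 5796 and 6313 RPM, so the groups overlapped. The mean was 6183 ± 368 RPM (SD, n = 2) in the inputs and 6054 ± 366 RPM (SD, n = 2) in the IPs, a log2 change of -0.03 ± 0.09 (SE) with an adjusted p of 0.767 by edgeR's quasi-likelihood test with Benjamini-Hochberg adjustment over 62 strata of RNA class, first base and length. Of these strata 11.3% were called higher and 69.4% lower, with a median log2 change of -1.98. Among reads with GENSCAN names alone the members made up 14.3% and 14.5% in the inputs and 37.3% and 39.3% in the IPs. The position of 0 rests on the total of listed reads: TMM factors and DESeq2's own size factors raised the median of the strata by 1.81 and 2.02 on the log2 scale and put the members at 1.79 and 1.99.

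Ratios to like reads do not depend on that choice. GENSCAN-only reads of 18 to 23 nt with another first base stood at 9717, 9809, 1341 and 1569 RPM, a log2 change of -2.75 ± 0.11 (edgeR, Benjamini-Hochberg adjusted p = 1.85e-05), and per read of that kind the members numbered 0.610, 0.657, 4.32 and 4.02. The members thus gained 2.72 on the log2 scale relative to them, with an adjusted p of 5.50e-05 by edgeR with the like stratum as library size, and 1.75 when each distinct sequence was counted once. Counts of distinct sequences, here and below, depend on depth. The IPs were deeper than the inputs, so such values compare libraries of unlike depth. GENSCAN-only reads of 24 to 36 nt that begin with T stood at 9286, 9656, 6328 and 6058 RPM, and the members gained 0.59 ± 0.13 relative to these (edgeR, adjusted p = 1.22e-05). This second gain shrank to 0.06 (adjusted p = 0.686) when each distinct sequence was counted once. Within those longer first-T reads, 24 to 27 nt had a log2 change of -0.05 (adjusted p = 0.610) and 28 to 36 nt one of -2.30 (edgeR, adjusted p = 5.83e-05). Against piRNA cluster reads of the same length and first base, which rose from 129865 ± 2167 to 173840 ± 6461 RPM (SD, n = 2 each), the members lost 0.45 ± 0.06 (edgeR, adjusted p = 0.00303). The exact permutation test of 2 against 2 libraries gave its smallest possible two-sided p, 1 in 3, for each of the 3 ratios.

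The steady total was the sum of members that rose and members that fell, and a property outside the rule separated them. Members were split by whether a longer sequence read in either input holds them. The split uses neither the count of the member itself nor the IPs, and was chosen after the data were seen. Longer members read in an input count among the other longer sequences, so their input reads can place a shorter member there. The 5864 members (21.97%) held by a longer sequence with a piRNA cluster name stood at 2461, 2984, 4831 and 5254 RPM, and both IPs were above both inputs. Their log2 change was 0.89 ± 0.12 (edgeR, adjusted p = 0.00147 over 64 strata, of which 12.5% were called higher and 70.3% lower). The 18960 members (71.0%) held by no longer input sequence stood at 3005, 2983, 799.8 and 869.7 RPM, and fell by 1.84 ± 0.09 on the log2 scale (edgeR, adjusted p = 3.10e-05). The 1864 members held by other longer sequences alone stood at 457, 476, 166 and 189 RPM, and fell by 1.40 ± 0.12 (edgeR, adjusted p = 0.000225), a call lost when each distinct sequence was counted once (-0.23, adjusted p = 0.101). Members that end in CCA gave 25.2%, 25.0%, 7.43% and 5.50% of the reads of this group. Among them were Tccccggcacctccacca and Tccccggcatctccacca, described below.

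With each distinct sequence counted once the changes were smaller, 0.44 for members held by a cluster sequence and -0.46 for members held by none, and both were still called by edgeR. The difference between these 2 groups was tested directly. Relative to members held by a longer cluster sequence, members held by none changed by -2.75 ± 0.13 on the log2 scale (edgeR with the held reads as library size, adjusted p = 4.04e-05). The ratio was -2.62 and -2.70 when the longer sequences were taken from input 1 or input 2 alone, and -2.76 without the 10 members with the most reads. It was -0.91, still called, when each distinct sequence was counted once. TMM factors and DESeq2's own size factors place the members held by none at 0.11 and 0.03, and those held by a cluster sequence at 2.84 and 2.76, so the 2 groups keep their distance while the sign of the first depends on the scaling. In the make-up of the reads, members held by a longer cluster sequence gave 41.5% and 46.3% of member reads in the inputs and 83.3% and 83.2% in the IPs.

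Most held members were 5′ parts and not internal pieces. Of the 5864, 4526 begin a longer cluster sequence, and these gave 40.0% and 44.7% of member reads in the inputs and 81.0% and 80.7% in the IPs. Where a member begins longer cluster sequences of any library, the one with the most reads was most often 26 nt long, which held for 1657 members with 26.2%, 32.1%, 32.3% and 33.1% of the reads of such members. By number of members 25, 27 and 24 nt followed, with 1461, 915 and 759. A narrower count took only listed sequences of 24 to 36 nt as the longer ones, of any class and library. By it, 34.9% of the members begin one. The like shares were 14.2% of the GENSCAN-only sequences of 18 to 23 nt with another first base and 59.5% of the piRNA cluster sequences of 18 to 23 nt that begin with T.

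By single length, 18 nt was the most frequent and 22 nt the least. Reads of 18 nt stood at 1912, 2016, 2133 and 2260 RPM, both IPs above both inputs by a margin that did not pass the test (log2 change 0.16 ± 0.12, edgeR adjusted p = 0.221). Reads of 19, 20 and 21 nt had log2 changes of 0.01, -0.08 and 0.04 with overlapping groups, and none was called. Reads of 22 nt stood at 555, 677, 417 and 448 RPM, and those of 23 nt at 667, 734, 524 and 569 RPM. Both lengths fell, by 0.51 ± 0.16 (edgeR, adjusted p = 0.00149) and 0.36 ± 0.15 (adjusted p = 0.0241) on the log2 scale, in a table of 303 strata of which 11.9% were called higher and 68.6% lower. Without input 2 neither length was called (adjusted p = 0.0750 and 0.153), and 23 nt was not called without IP 1 (adjusted p = 0.141). Both changes were positive with TMM factors, at 1.19 and 1.34. With each distinct sequence counted once neither was called (-0.27, adjusted p = 0.142, and -0.0022, adjusted p = 0.989), and 19, 20 and 21 nt were called lower instead, at -0.31, -0.56 and -0.53 (edgeR).

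The share of each length held by longer cluster sequences of the inputs also differed. At 18 nt it was 54.6%, 58.5%, 87.4% and 87.4% of the reads, and at 23 nt it was 22.8%, 27.97%, 61.6% and 64.1%. A member of 23 nt can be held by sequences of 24 nt or more alone, whereas one of 18 nt can also be held by those of 19 nt. Within every single length the held reads of each IP were above those of each input, from 1044, 1180, 1864 and 1975 RPM at 18 nt to 152, 205, 323 and 365 RPM at 23 nt. Reads held by no longer sequence were lower in both IPs at every length, from 694, 649, 235 and 245 RPM at 18 nt to 451, 473, 159 and 157 RPM at 23 nt. These values by length were not tested.

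By number of names per row no class passed the test. A single name was given to 23059 members (86.4%), 2 to 5 names to 2917, 6 to 10 names to 305, and over 10 names to 407, which are called repeat-like here because a sequence found in that many predicted transcripts is a repeated one. Only GENSCAN names are counted, so a sequence repeated elsewhere can have a single name. The longer sequences printed above for single-name members Tactgtctgagccaccag, Tctttgcgaccctgtggact and Tctttgtgaccctatggactg carry 68, 20 and 30 cluster names. Of these names 3, 0 and 1 are without a mismatch note. The longer sequence of Ttcttgggaattgtgatg carries 2 cluster names. Single-name rows stood at 5157, 5775, 5116 and 5590 RPM, with a log2 change of -0.03 ± 0.09 (edgeR, adjusted p = 0.782). Rows of 2 to 5 names and of 6 to 10 names had log2 changes of -0.03 ± 0.13 and -0.28 ± 0.22, with adjusted p of 0.832 and 0.288 by edgeR. Rows of 11 to 50 names stood at 33.4, 35.5, 42.6 and 41.7 RPM, where both IPs lay above both inputs and the log2 change of 0.29 ± 0.19 did not pass (edgeR, adjusted p = 0.208). In that table of 182 strata 14.3% were called higher and 61% lower. With each distinct sequence counted once, rows of 11 to 50 names were called higher, at 0.92 (edgeR, adjusted p = 0.000206), and rows of 1 name lower, at -0.23 (adjusted p = 0.0251).

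The 407 repeat-like members were rare in reads, and none reached 5 RPM in 2 libraries. They gave 38, 50, 480 and 464 reads, or 0.594%, 0.573%, 0.743% and 0.664% of the member reads, with Wilson 95% intervals of 0.433% to 0.815% in input 1 and 0.680% to 0.813% in IP 1. The 11 members with over 50 names had 2, 2, 6 and 3 reads and were too few to test. The members with the most names and those with the most reads are printed because each set is 1 repeated stretch read in several registers.
87 names, the most of any member: Ttacacaggactggcgaaa
81 names: Ttacacaggactggggaa
74 names: Tacacaggactggggaaac
21 names, the most reads of a repeat-like member: Tctctgtggggtctctgggtcct
12 names: Tctcagtctctgtggggtctct
25 names: Tctgtggggtctctgggtcc
The first and second differ by C15G, and the third is the second shifted by 1 base. Each of these first 3 had 1 read in all 4 libraries, so they show how widely a sequence was named and nothing about the IP. The member with 21 names stood at 0.926, 2.95, 2.42 and 1.72 RPM, from 1, 4, 27 and 19 reads. That of 12 names stood at 0.926, 1.48, 1.71 and 2.44 RPM, and that of 25 names at 1.85, 1.48, 0.269 and 0.542 RPM. At 1 to 4 input reads each, no difference was detectable for them singly. For these last 3, the longer sequence with the most reads is GENSCAN-only.

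Single members were sparse. Of the 26688, 20017 had 1 read in all 4 libraries together, 259 were read in every library, 5947 in the inputs alone and 19563 in the deeper IPs alone. They begin at 22071 distinct 5′ ends (the first 18 bases), of which 84 had members of all 6 lengths. The 10 leading 5′ ends held 18.4% and 21.97% of member reads in the inputs and 40.4% and 39.6% in the IPs.

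The test of single sequences reached 126 members (0.472%), those with at least 5 RPM in 2 libraries, from 56 5′ ends, and sequences that share a 5′ end are not independent. Of the 126, 65 were called higher in the IP and 2 lower by edgeR, where of all 23229 sequences tested 29.8% were called higher and 21.8% lower. Among the 126, 25 passed the filter through the IPs alone and had to differ, and 1 passed through the inputs alone, so this count is no measure of the members that were not tested. The count of 65 fell to 16 with TMM factors, to 5 with DESeq2's own size factors, to 26 without IP 1 and to 16 without IP 2, while both members called lower were called in each of these fits. By the longer sequences of the inputs, 119 of the 126 were held by a cluster sequence. Of these, 64 were called higher and 0 lower (0 lower also at an unadjusted p under 0.05 by edgeR). Of the 4 held by other sequences, 1 was called higher and 2 lower. Of the 3 held by none, 0 were called higher and 0 lower (0 lower also at an unadjusted p under 0.05 by edgeR).

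The member with the most reads was Ttcttgggaattgtgatg on GENSCAN00000020599, at 197, 202, 376 and 317 RPM. Both IPs were above both inputs, and it rose by 0.80 ± 0.23 on the log2 scale (edgeR, adjusted p = 0.00605), a call not kept without IP 1 (adjusted p = 0.151). Its forms Ttcttgggaattgtgatga and Ttcttgggaattgtgatgaa, of 19 and 20 nt, stood at 58.4, 32.5, 118 and 107 RPM and at 13.9, 13.3, 39.1 and 36.8 RPM, and rose by 1.32 and 1.48. The longer cluster sequence that begins with the same 18 bases went the other way, at 4887, 4462, 2448 and 2223 RPM. The form of 20 nt departs from it by A20G, the member's base first. Both cluster names of that 24-nt sequence are without a mismatch note, and the first is a cluster on chromosome 23 from 13905000 to 14137856, the genome build not being stated in the labels or files.

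A pair of related 5′ ends on GENSCAN00000005115 came next, and both gave a ladder of lengths that ended where the member departs from the longer cluster sequence. Tctttgcgaccctgtggact stood at 100, 139, 192 and 214 RPM and rose by 0.76 ± 0.25 (edgeR, adjusted p = 0.0128), a call not kept without input 1, IP 1 or IP 2. Its forms of 18, 19 and 21 nt stood at 28.7, 50.2, 64.5 and 82.5 RPM, at 38.9, 70.9, 83.1 and 102 RPM, and at 38.9, 70.2, 124 and 131 RPM, whereas those of 22 and 23 nt, which depart from the printed 26-nt cluster sequence by C22T, stayed at or under 1.85 RPM in every library. All 20 cluster names of that 26-nt sequence carry a mismatch note. Tctttgtgaccctatggactg stood at 22.2, 70.9, 121 and 134 RPM and rose by 1.42 ± 0.33 (edgeR, adjusted p = 0.000673). Its inputs lay far apart, and the change was 0.85 without input 1 and 2.52 without input 2. Its form of 22 nt still matches the longer sequence and stood at 15.8, 21.4, 44.7 and 49.1 RPM, and that of 23 nt departs by G23A and stood at 3.71, 2.22, 0.539 and 0.271 RPM.

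Of the other leading members, Tactgtctgagccaccag stood at 65.8, 70.9, 117 and 138 RPM and rose by 0.89 ± 0.26 (edgeR, adjusted p = 0.00588), a call not kept without IP 2 (adjusted p = 0.135). Tctcaaggactctctctt stood at 114, 157, 162 and 139 RPM with overlapping groups and was not called (log2 change 0.15 ± 0.25, edgeR adjusted p = 0.619).

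The 2 members called lower are a pair of near-identical sequences that end in CCA. Tccccggcacctccacca stood at 74.1, 67.2, 7.54 and 6.60 RPM, from 80, 91, 84 and 73 reads, and was among the 5 most abundant members of the inputs. It fell by 3.31 ± 0.31 on the log2 scale (edgeR, adjusted p = 5.39e-10). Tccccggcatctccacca stood at 33.4, 49.5, 2.24 and 2.08 RPM and fell by 4.26 ± 0.39 (edgeR, adjusted p = 3.38e-10). Both IPs lay below both inputs for each, and with microRNA reads as library size both values turned positive. CCA is the triplet that closes mature tRNAs, but the files give these rows no tRNA name. The listed tRNA fragments nearest to them at the 3′ end differed by 4 and 5 of the 18 bases. This search covered listed fragments alone and no tRNA genes, and whether the 2 members are tRNA ends was not tested. All 602 members that end in CCA, these 2 included, summed to 226, 208, 52.6 and 53.3 RPM, and tRNA fragments that end in CCA to 6788, 6971, 304 and 268 RPM.

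The largest changes rested on few input reads. Tgcagtggaagcatggaa had 1 read in both inputs together and 186 in the IPs, a ratio of RPM of 20.4 with an exact 95% interval of 3.61 to 810 for counting error. Ttgcaaagagttggacatga had 1 and 162 reads, a ratio of 17.8 (3.14 to 706), and Tgggctgttgggtatgaa had 1 and 149 reads, a ratio of 16.3 (2.89 to 649). Tattttcttgggctccaa had 2 and 186 reads, a ratio of 10.2 (2.78 to 84.8). All 4 passed the filter through the IPs alone and had to differ, so their edgeR calls are no support. Their 5′ ends as a whole changed less where more input reads were at hand. The 6 lengths from the 5′ end of Ttgcaaagagttggacatga summed to 29.6, 59.8, 110 and 120 RPM, and the 23-nt form among them, Ttgcaaagagttggacatgactt, stood at 21.3, 43.6, 56.3 and 73.3 RPM.
These sequences are printed in capitals within the longer ones that hold them, since 3 of the 4 begin a cluster sequence and the other a GENSCAN-only one. The GENSCAN name on each line belongs to the member in capitals. The longer sequences of all lines but the last carry cluster names and no GENSCAN name.
GENSCAN00000046140: TGCAGTGGAAGCATGGAAtcct
GENSCAN00000012792: TTGCAAAGAGTTGGACATGActtagaa
GENSCAN00000030565: TATTTTCTTGGGCTCCAAaattactg
GENSCAN00000005459: TGGGCTGTTGGGTATGAAg

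Summed by predicted transcript, a row's reads being divided equally over its names, the members were spread over 12523 GENSCAN names, of which 281 had enough reads to test. Of these, 69 were called higher and 50 lower by edgeR, where of all 7708 combinations of name, first base and length tested 20.8% were called higher and 33.6% lower. The fit is by name, so 488 short first-T rows that list other names besides GENSCAN ones added 0.610%, 0.689%, 1.15% and 1.15% to the reads tested. The counts fell to 6 and 24 without input 1 and to 12 and 31 without input 2. In the same fit, GENSCAN names gave 39 higher and 175 lower of 419 for first-T reads of 24 to 36 nt, and 10 higher and 266 lower of 320 for reads of 18 to 23 nt with another first base. The 8 names with the most member reads held 19.4%, 22.5%, 40.9% and 40.2% of these reads.

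GENSCAN00000005115 led with 102 member sequences at 370, 542, 825 and 935 RPM, and rose by 0.94 ± 0.15 (edgeR, adjusted p = 0.00113), while its first-T reads of 24 to 36 nt stood at 5.56, 10.3, 9.25 and 7.32 RPM. GENSCAN00000020599 had 19 member sequences at 278, 251, 538 and 467 RPM, and no listed first-T read of 24 to 36 nt. GENSCAN00000044498 was the one of the 8 with more long than short first-T reads. Its members stood at 106, 141, 231 and 285 RPM and rose by 1.05 ± 0.15 (edgeR, adjusted p = 0.000638), whereas its first-T reads of 24 to 36 nt stood at 1536, 1544, 1611 and 1440 RPM with a log2 change of -0.01 ± 0.08. GENSCAN00000036030 had 37 member sequences, each with this name alone, at 66.7, 90.8, 209 and 252 RPM, and rose by 1.54 ± 0.16 (edgeR, adjusted p = 9.73e-05). GENSCAN00000046060 stood at 119, 164, 163 and 140 RPM and was not called (log2 change 0.08 ± 0.15, edgeR adjusted p = 0.672), whereas its reads of 18 to 23 nt with another first base fell by 1.86 on the log2 scale (adjusted p = 0.000369). Those of GENSCAN00000005115 and GENSCAN00000036030 rose with the members, by 0.88 (edgeR, adjusted p = 0.00946) and 1.68 (adjusted p = 0.0171).

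The other 3 of the 8 were each called higher. GENSCAN00000012792 spread over 155 member sequences at 54.2, 91.9, 166 and 178 RPM, and here the first-T reads of 24 to 36 nt rose by a like amount, 1.19 against 1.22 on the log2 scale. GENSCAN00000002197 stood at 81.4, 97.7, 118 and 138 RPM, and GENSCAN00000006009 at 76.0, 73.1, 119 and 140 RPM. Of the 7 called names, 6 were not called when input 1 was left out (all but GENSCAN00000012792) and 5 when input 2 was left out (all but that name and GENSCAN00000005115), and the files do not say which known gene, if any, a GENSCAN name overlaps.

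The bases of the member reads differed between input and IP at positions 2 and 10. A at position 10 was found in 33.3%, 32.4%, 44.4% and 44.1% of member reads, a gain of 11.4 percentage points from a mean of 32.9% ± 0.65 to 44.2% ± 0.26 (SD, n = 2 each). G at position 2 was found in 22.1%, 21.7%, 8.65% and 9.17%. The groups did not overlap in either case, and the exact permutation test gave a two-sided p of 1 in 3, the smallest that 2 against 2 libraries allow. With each distinct sequence of a library counted once the gain of A at position 10 was 3.85 points, while the loss of G at position 2 was -10.9 points against -13.0 in reads. Other reads on predicted transcripts differed at the same positions. In GENSCAN-only reads of 24 to 36 nt that begin with T, A at position 10 stood at 50.5%, 47.6%, 69.4% and 67.99% and G at position 2 at 22.6%, 23.6%, 9.10% and 9.88%. In those of 18 to 23 nt with another first base, A at position 10 stood at 24.9%, 23.6%, 47.7% and 48.5% and G at position 2 at 24.1%, 24.2%, 8.58% and 9.78%. The GC content of member reads was 49.7%, 50.1%, 46.7% and 46.5%.

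The 2 groups set by longer sequences differed in how far the bases moved and from what level. In members held by a longer cluster sequence, A at position 10 stood at 46.3%, 41.3%, 46.7% and 46.6% and G at position 2 at 6.85%, 7.33%, 7.02% and 7.50%. In members held by no longer sequence, A at position 10 stood at 25.2%, 25.2%, 34.4% and 32.1% and G at position 2 at 33.9%, 35.97%, 17.5% and 18.4%. With each distinct sequence counted once, G at position 2 in the held members was 11.5%, 12.3%, 18.6% and 19.9%, higher in both IPs, and in members held by none 33.8%, 36.7%, 18.9% and 19.8%. Distinct sequences were counted at unlike depth, and by reads the groups overlapped for the held members. These values within groups were not tested. In piRNA cluster reads of the same length and first base, G at position 2 was 13.2%, 13.2%, 13.6% and 14.4% and A at position 10 was 42.7%, 42.8%, 44.4% and 44.0%.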

How the data were processed

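Small RNAs of bovine GV oocytes were sequenced single-end on an Illumina NextSeq from NEXTflex Small RNA-Seq Kit V3 libraries, 2 of input and 2 of RNA precipitated with anti-Tdrkh, per the labels' protocols. The deposited files give, for each distinct sequence of 18 to 36 nt, its read count and the names assigned by unitas, per the file names and headers. The deposited counts are raw read counts. Not given in the sources used here were trimming, mismatch settings, the source of the GENSCAN set and the genome build. Reads without a name were not analysed here, and counts include PCR copies.

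From the counts, members were found by name, first base and length, and bracketed notes were stripped. The change from input to TDRKH IP was tested with glmQLFit and glmQLFTest of edgeR 4.0.16 (R 4.3.3), the quasi-likelihood test, each library's listed reads being its size, with no further factor and Benjamini-Hochberg adjustment over each whole table at a threshold of 0.05. The tables were strata of RNA class, first base and length (at least 100 reads), single sequences (at least 5 RPM in 2 libraries) and names (reads divided equally over a row's names, rounded, filterByExpr). Standard errors were approximated from the log2 change and the F statistic. A like stratum's reads served as library size for ratios. Shares were compared by the exact permutation test, and intervals are Wilson or exact binomial at 95%. All intervals cover counting error alone.

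Named sequences were the 5 members with the highest mean RPM in each group and, in each direction, the 8 called members with the most reads and the 4 further ones with the largest change, with both IPs on one side of both inputs. Named transcripts were the 8 with the most member reads, and repeat-like members the 5 with the most names and the 5 with the most reads, of which some are described. The members, lists and rules were chosen with earlier results of these data known. Alternatives were TMM, DESeq2 1.42.0, other library sizes, filters, thinned IPs, distinct sequences counted once, the replicate number as a block and leaving out each library; the lone library of a group was then assumed to vary like the others. The split by longer sequences and its alternatives were added after the data were seen. Tested on simulated data, the sequence fit recovered 22.2% of 108 2-fold and 76.1% of 92 4-fold changes among 23229 sequences. The name fit recovered 26.2% of 103 and 50.5% of 97 among 7708 combinations. The simulation used a fixed spread and changed far fewer features than were called in the data. Its shares therefore do not give the power of the fits reported here. Other steps used Python 3.11.15, numpy 2.4.6, pandas 2.3.3 and scipy 1.17.1.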

Additional observations from a re-analysis of the deposited data

How the results depend on the processing

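Depth limits single members: 1 read was 0.926 and 0.739 RPM in the inputs, and 3 reads 2.78 and 2.22 RPM, so most of the 26688 members could not be tested. With 2 libraries a group, leaving out 1 library ended many single calls, and the cause was not tested. Scaling set the zero of every log2 change. In the order TMM factors, DESeq2's own size factors and microRNA reads as library size, the log2 change of all member reads was 1.79, 1.99 and 4.72, of members held by other longer sequences 0.55, 0.47 and 3.35, and of members held by none 0.11, 0.027 and 2.91. In that order 20 nt gave 1.62, 1.87 and 4.67, 22 nt 1.19, 1.44 and 4.25, 23 nt 1.34, 1.59 and 4.40, rows of 1 name 1.34, 1.49 and 4.72, of 2 to 5 names 1.33, 1.48 and 4.72, and of 6 to 10 names 1.09, 1.23 and 4.46. All 6 lengths and all 4 tested name bins were then called higher, and 0 lengths lower, in place of 2. Member sequences called higher numbered 16, 5 and 125 in place of 65, and with microRNA reads edgeR called 0 lower (0 also unadjusted), Tccccggcacctccacca and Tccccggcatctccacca being at 1.44 and 0.49. Tctcaaggactctctctt, not called, was at -0.45 with TMM and -0.40 with DESeq2's factors. Names called higher numbered 33 with DESeq2's factors, 37 with DESeq2 and totals and 250 with microRNA reads, and 5 were then called lower. With piRNA cluster reads as library size, 19 nt was at -0.13, 21 nt at -0.089 and GENSCAN00000046060 at -0.052, none of them called.

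With rows that carry a bracketed note left out, a step that removes cluster reads and no member, all member reads were at -0.33 (adjusted p = 0.00221), 18 nt at -0.14, 19 nt at -0.30, 21 nt at -0.26, rows of 11 to 50 names at -0.0080, Tctcaaggactctctctt at -0.15 and GENSCAN00000046060 at -0.21, 4 lengths and 3 name bins were called lower, 36 and 9 sequences higher and lower, and 43 names higher. With sequences seen more than once in a library, all member reads were at 0.16, 20 nt at 0.18, rows of 1 name at 0.15, of 2 to 5 names at 0.24, Tctcaaggactctctctt at -0.049, GENSCAN00000046060 at -0.10, 0 lengths were called lower, 39 sequences higher and 16 names lower. Counting each distinct sequence once gave 19 nt -0.31, 21 nt -0.53, rows of 6 to 10 names 0.26 (not called), 1 name bin higher (11 to 50 names, 0.92) and 1 lower (1 name, -0.23), members held by other longer sequences -0.23, the ratio to longer first-T reads 0.064, and 3.85 and -10.9 percentage points for A at position 10 and G at position 2. Without the 10 members with the most reads, 18 nt was at -0.054, 19 nt at -0.15 and 21 nt at -0.28, and 1 name bin was called lower. Members of 18 to 22 nt gave 0.0066 in total. Thinned IPs gave rows of 2 to 5 names 0.013, and 32 names higher and 5 lower of 53 tested. At 2 RPM, 11 sequences were lower; at 5 RPM, 17 names were lower. With no filter, edgeR called 0 of the 26688 members in either direction, 72 being higher and 1587 lower at an unadjusted p under 0.05, and 0 names higher (74 unadjusted) and 1 lower; DESeq2 was not run without a filter.

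Leaving out each library in turn gave ranges of -0.093 to 0.032 for all member reads, -0.075 to 0.085 for 19 nt, -0.039 to 0.13 for 21 nt, -0.11 to 0.054 for rows of 1 name, -0.13 to 0.075 for rows of 2 to 5 names, -0.060 to 0.40 for Tctcaaggactctctctt and -0.12 to 0.35 for GENSCAN00000046060, and of 0 to 2 lengths lower, 16 to 69 sequences higher, 6 to 62 names higher and 24 to 46 lower. A at position 10 ranged from 10.9 to 11.8 points and G at position 2 from -13.2 to -12.7. The ratio of members held by none to those held by a cluster sequence kept its call and direction in each of these fits, from -2.88 to -2.59.

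The labels do not say whether replicate numbers pair an input with an IP, and 2 pairs are too few to tell from the data. Deviations from group means correlated at 0.08 over all sequences tested and at 0.32 over the 126 members. With the replicate number as a block, 57 sequences were called higher and 2 lower, 82 names higher and 50 lower, and the log2 change of all member reads was -0.03. The block changed no other call named above.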

Other observations

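Reads of members that pair with another listed GENSCAN-only sequence of the same name on the opposite strand were few. Partners with piRNA cluster names were not searched, so pairs with such sequences could not be found. Overlap of 10 nt, the overlap that slicing leaves between partner piRNAs, was found for 19 members (0.0712%), against 94 at 8 nt, 9 at 9 nt, 1 at 11 nt, 4 at 12 nt and 12 at 13 nt, and these 19 gave at most 0.0263% of member reads in any library.

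Members ordered by their reads in input 1 alone differed in the other libraries. The 23433 members not read in input 1 summed to 3886 RPM in input 2 and to 1831 and 2050 RPM in the IPs, whereas the 24 members with 20 reads or more there summed to 1386 RPM in input 2 and to 2030 and 2117 RPM in the IPs. Ordered by input 2, the 22486 members not read there summed to 3775 RPM in input 1 and to 1601 and 1772 RPM in the IPs, and the 40 with 20 reads or more to 1339 RPM in input 1 and to 2631 and 2769 RPM in the IPs.

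Other 5′ ends within 3 substitutions of a leading one did not all go with it. The 42 near Tctttgcgaccctgtgga, which rose in some of its forms, summed to 166, 219, 363 and 405 RPM, and the 40 near Tccccggcacctccacca, which fell, to 77.8, 70.9, 3.41 and 2.71 RPM. The 14 near Tactgtctgagccaccag, which rose, summed to 12.0, 3.69, 1.26 and 1.81 RPM, and the 6 near Tctcaaggactctctctt, which was not called, to 13.0, 12.6, 1.62 and 1.72 RPM. The leading end itself is left out of each sum, but other ends described above are not. The sum near Tctttgcgaccctgtgga includes Tctttgtgaccctatgga, at 85.2, 140, 239 and 273 RPM. The sum near Tccccggcacctccacca includes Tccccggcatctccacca, at 34.3, 50.2, 2.24 and 2.08 RPM. The values of these sums were not tested.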
